A study of Bos taurus with 7 samples.

Results

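The genes described here encode enzymes that make reactive oxygen species or nitric oxide on purpose: the dual oxidases DUOX1 and DUOX2 with their maturation factors DUOXA1 and DUOXA2, the NADPH oxidase NOX1, the phagocyte oxidase subunits CYBA, CYBB and NCF1, and the nitric oxide synthases NOS2 and NOS3. They were taken by symbol, as the non-control probes whose gene name in the scanner files equals one of these 10 names. The match used no measured values, but the names were chosen with earlier results of these data known. All 10 were on the array, each with 1 probe printed as 1 spot, among 14964 distinct gene names in all. Of the 10, 9 cleared the background on 3 or more of the 7 arrays and entered the test beside the other genes, 12570 in total, and NOS2 did not.

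RNA came from the rumen epithelium, a stratified and keratinised sheet that lines the forestomach, of 7 Holstein calves, with 1 single-colour Agilent array per calf. The HAY group was provided with forage (calves 9, 10 and 13, n = 3) and the CON group was not (calves 8, 11, 12 and 14, n = 4). The series concerns forage, calf starter and rumen pH around weaning, and its design text places the division into groups at 3 weeks after weaning. The labels give no strain beyond the breed, no age and no treatment other than the feeding group.

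In stratified epithelia and in the gut, dual oxidases sit at the apical membrane and release hydrogen peroxide to the outside, where it serves peroxidases and defence against microbes. Each dual oxidase needs a maturation factor to leave the endoplasmic reticulum. DUOX1 with DUOXA1, and DUOX2 with DUOXA2, are encoded side by side in a head-to-head arrangement. The phagocyte oxidase is built differently: a membrane core of CYBB and CYBA is switched on when cytosolic subunits such as NCF1 and NCF4 and a RAC GTPase join it, as in macrophages and neutrophils. Nitric oxide synthases make nitric oxide from arginine, NOS3 mainly in endothelium and NOS2 on induction by inflammatory signals.

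The 4 dual oxidase genes form 1 cluster on bovine chromosome 10. In the RefSeq gene table of assembly ARS-UCD2.0, used here for names and neighbours only, they follow each other directly in the order DUOX1, DUOXA1, DUOXA2, DUOX2. The probe positions in the scanner files, on UMD_3.1, keep that order, and the files list the DUOX1 and DUOXA2 probes in descending and the DUOXA1 and DUOX2 probes in ascending coordinates. The 60-base probe sequences, in lower case as the files give them from 5′ to 3′, are shown because the dual oxidases are paralogs and each value below rests on 1 such probe.
DUOX1, chr10:65492594-65492653: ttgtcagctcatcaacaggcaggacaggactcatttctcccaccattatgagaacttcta
DUOXA1, chr10:65535578-65535637: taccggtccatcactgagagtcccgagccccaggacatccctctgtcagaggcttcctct
DUOXA2, chr10:65538171-65538230: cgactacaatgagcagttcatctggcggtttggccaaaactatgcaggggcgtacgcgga
DUOX2, chr10:65557792-65557993: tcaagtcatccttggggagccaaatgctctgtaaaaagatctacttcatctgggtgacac
The longest run of bases that any of these 4 probes shares with another probe on the array, read in the same orientation, was 14 bases, in the DUOXA1 probe. The DUOX2 probe, at 202 bases of genome for 60 bases of probe, spans more sequence than it holds. Exon and UTR annotation of this build was not used here.

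A level below is the log2 processed signal minus the 75th percentile of the same array, so 0 is the 75th percentile of that array's own probes and a difference of 1 is 2-fold. Levels are listed throughout in the order of calves 9, 10 and 13 for HAY and 8, 11, 12 and 14 for CON. Levels of different probes cannot be ranked against each other, because each probe has its own brightness. DUOX2 stood at -1.77, -1.56 and -1.30 in HAY and at -2.94, -2.37, -2.16 and -2.90 in CON. Every HAY calf was above every CON calf, with the nearest values in HAY calf 9 and CON calf 12. The means were -1.54 ± 0.24 (SD, n = 3) and -2.59 ± 0.39 (SD, n = 4). The HAY mean was thus 2.07-fold above the CON mean (a log2 difference of 1.05 with SE 0.24, 95% interval 0.50 to 1.60; limma p = 0.00255 unadjusted, adjusted p = 0.210 over all genes; exact two-sided permutation p = 0.0286, the smallest that 3 against 4 allows). It did not pass the adjustment.

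DUOXA2, the maturation factor of DUOX2, stood at -0.99, 0.21 and 1.38 in HAY and at -2.34, -0.41, -0.65 and -1.01 in CON. HAY calves 10 and 13 were above every CON calf, while HAY calf 9 lay below CON calves 11 and 12. The log2 difference was 1.30 (2.47-fold, SE 0.63), larger than that of DUOX2 but with a wider spread between calves, and its 95% interval of -0.17 to 2.78 includes 0 (adjusted p = 0.402 with limma). It depended on the calves included: without HAY calf 13 it was 0.71, with CON calf 8 left out as well it was 0.30, and leaving out HAY calf 9 gave 1.90 (limma unadjusted p = 0.0165, adjusted p = 0.173).

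The DUOX1 pair had smaller differences. DUOX1 stood at -2.25, -1.81 and -1.94 in HAY and at -3.13, -2.39, -1.87 and -1.54 in CON. CON held both the lowest and the highest calf, and the log2 difference of 0.23 (SE 0.36, 95% interval -0.61 to 1.08) became -0.07 without CON calf 8. DUOXA1, its maturation factor, stood at -2.62, -2.08 and -1.34 in HAY and at -3.47, -3.15, -2.24 and -1.64 in CON, a log2 difference of 0.61 (SE 0.49, 95% interval -0.53 to 1.75) that was -0.0046 without HAY calf 13 and CON calf 8. For neither gene did the groups separate, and the intervals still hold differences of 2-fold.

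**Figure D1:**
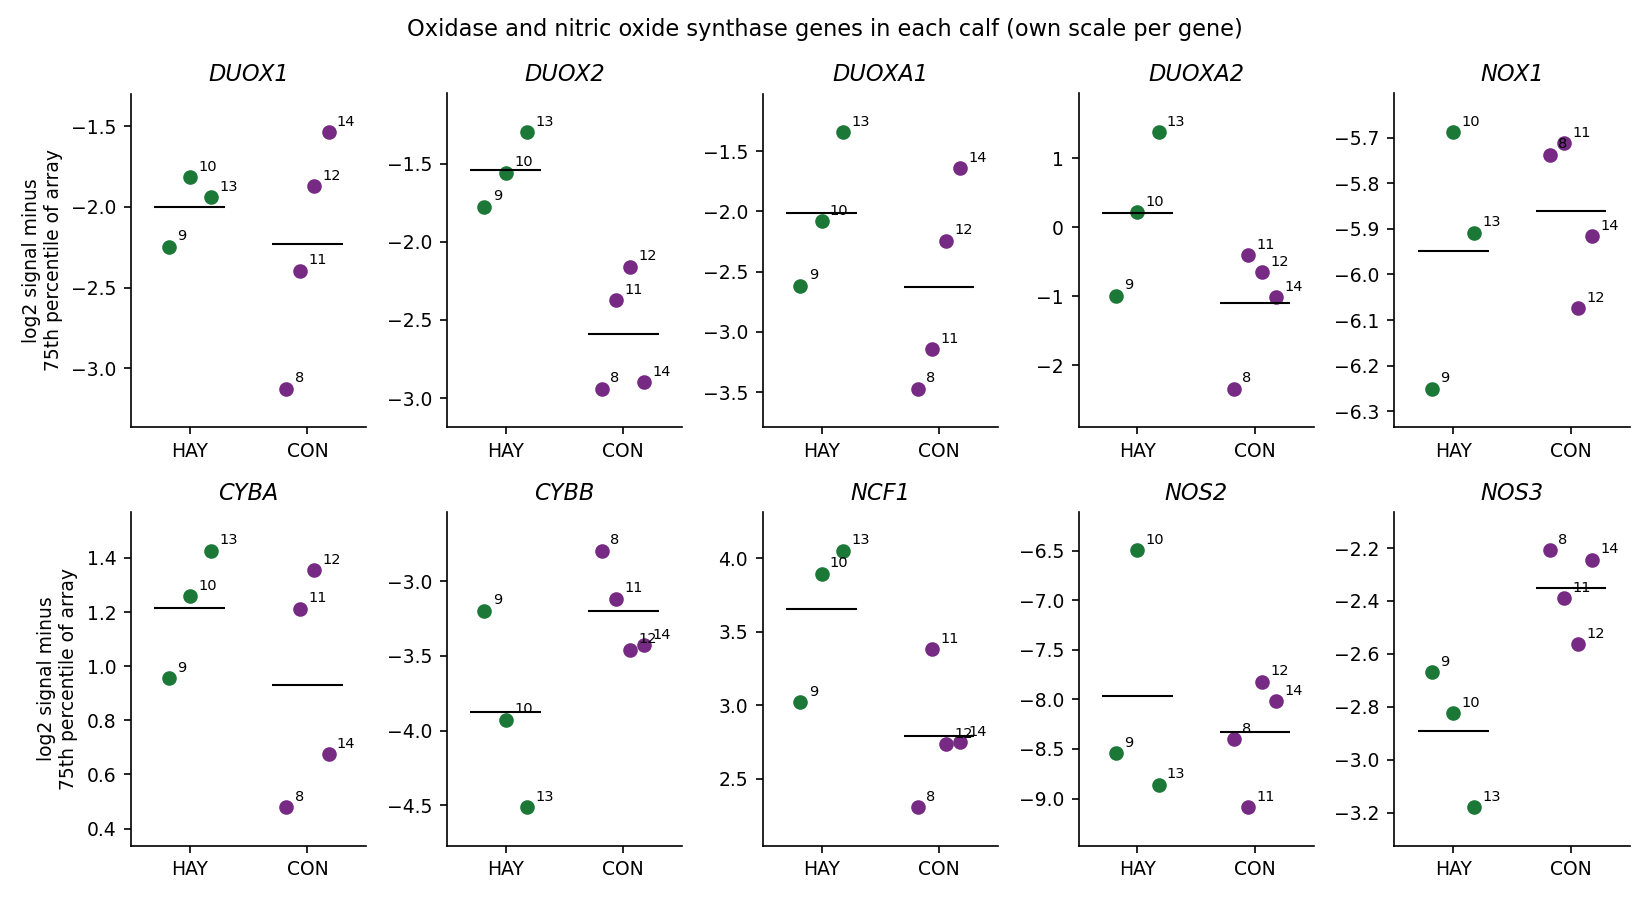
Level of each gene in each calf (y axis: log2 signal minus the 75th percentile of the array, own scale per gene), with HAY calves in green, CON calves in purple, calf numbers beside the points and the group mean as a line. Only DUOX2 and NOS3 show no overlap between the groups. The NOS2 probe was well above background only in HAY calf 10.

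Over the 9 tested genes, 3 had an unadjusted limma p under 0.05, namely DUOX2 and NCF1, higher in HAY, and NOS3, lower in HAY, and none passed the adjustment over all genes. Over all 12570 tested genes the same rule called 14.0%, 6.79% higher and 7.17% lower in HAY, and the adjustment left 1 gene (0.00796%). The groups did not overlap in 2 of the 9, DUOX2 and NOS3, against 11.8% of all genes, 6.55% with HAY above and 5.30% with HAY below. A difference of at least 2-fold was found in 2 of the 9, DUOX2 and DUOXA2, against 6.63% of all genes, and none of the 9 was at least 2-fold lower in HAY, against 5.26%. With so few members these counts are not set apart from the background. All 4 dual oxidase genes had higher means in HAY, where 54.5% of all genes did, with a median log2 difference of 0.83 beside 0.03 over all tested genes. That median was 0.15 without HAY calf 13 and CON calf 8. By the mean deviation of these genes they were the highest HAY and the lowest CON calf. Leaving them out thus draws the groups together by construction.

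**Figure D2:**
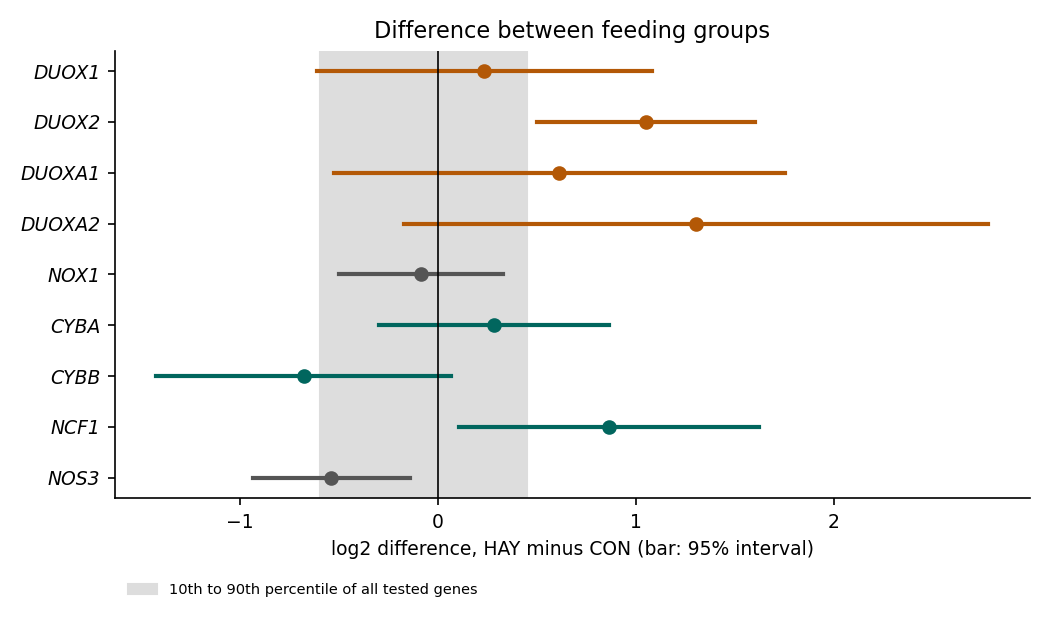
Log2 difference between groups, HAY minus CON (x axis), for the 9 tested genes, with 95% intervals as bars, dual oxidase genes in orange, phagocyte oxidase subunits in teal and NOX1 and NOS3 in grey. The shaded band runs from the 10th to the 90th percentile of all tested genes, -0.60 to 0.45. The intervals of DUOX2, NCF1 and NOS3 leave out 0.

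NOX1, the oxidase of the colon epithelium, was dim on every array. In intensity units it gave 24.7, 36.6 and 36.5 in HAY and 34.7, 35.6, 22.6 and 32.4 in CON, where the median probe had between 182 and 241. The groups overlapped fully. The log2 difference was -0.09 (SE 0.18, 95% interval -0.50 to 0.33), and it was 0.06 without HAY calf 9.

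The 3 subunits of the phagocyte oxidase went in different directions. CYBB, the catalytic subunit (NM_174035, chrX:111079540-111079599), stood at -3.20, -3.93 and -4.51 in HAY and at -2.79, -3.12, -3.46 and -3.43 in CON. HAY calves 10 and 13 were below every CON calf, and HAY calf 9 lay among the CON calves. The log2 difference was -0.68 (1.60-fold lower, SE 0.32, 95% interval -1.42 to 0.07; adjusted p = 0.389 with limma), and leaving out HAY calf 13 gave -0.36. It was -0.23 without HAY calf 13 and CON calf 8, and -1.02 without HAY calf 9.

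NCF1, the cytosolic organiser subunit (NM_174119, chr25:33267523-33267582), had the opposite sign. Its level was 3.02, 3.90 and 4.05 in HAY and 2.31, 3.38, 2.74 and 2.75 in CON. Only CON calf 11 exceeded a HAY calf, calf 9. The log2 difference was 0.86 (1.82-fold higher in HAY, SE 0.33, 95% interval 0.10 to 1.62; adjusted p = 0.318 with limma, exact permutation p = 0.0857). Its unadjusted p was under 0.05 in 2 of the 7 fits that left out 1 calf, those without HAY calf 9 or CON calf 11, and the difference was 0.50 without HAY calf 13 and CON calf 8.

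CYBA (NM_174034, chr18:13931159-13931218), the membrane partner that CYBB shares with other oxidases of the NOX family such as NOX1, differed least. It stood at 0.96, 1.26 and 1.43 in HAY and at 0.48, 1.21, 1.35 and 0.68 in CON. The groups overlapped, with CON calves 11 and 12 above HAY calf 9. The log2 difference was 0.28 (SE 0.25, 95% interval -0.30 to 0.86).

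The list of other NADPH oxidase genes added further genes of the phagocyte complex. Of its 12 genes 10 were on the array and 7 were tested, 3 with higher and 4 with lower values in HAY (median log2 difference -0.04). At an unadjusted limma p under 0.05, 1 was higher and 2 were lower, against 6.79% and 7.17% of all tested genes, and none passed the adjustment. NCF4, a further cytosolic subunit, stood at -6.29, -7.34 and -7.26 in HAY and at -5.30, -5.69, -5.24 and -6.20 in CON, without overlap. Its log2 difference was -1.36 (SE 0.33, adjusted p = 0.219 with limma), and only -0.45 when the background was corrected by normexp. RAC2, the GTPase of the complex in blood cells, had a difference of 0.73 (SE 0.28, adjusted p = 0.322 with limma). CYBB and NCF4 thus had lower values in HAY while NCF1 and RAC2 had higher ones. NOX4 and NOX5 were not well above background on any array and NOX3 on 1.

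Markers of macrophages and monocytes had lower values in HAY beside CYBB and NCF4. Of 13 tested markers 12 were lower, where 45.5% of all genes were, with a median log2 difference of -0.95. At an unadjusted limma p under 0.05 10 of them were lower, where 7.17% of all genes were, and none passed the adjustment. CSF1R, which binds the growth factor that macrophages need, differed by -1.28, AIF1 by -0.91 and FCER1G by -0.76. Their summed level, in multiples of the 75th percentile, lay between 9.63 and 11.0 in HAY and between 13.6 and 22.5 in CON, and the integrin ITGAM was not well above background on any array. NCF1 and RAC2 went against this list. Fewer cells of a type and less RNA per cell cannot be told apart in bulk tissue, and the part of these cells in the CYBB difference was not tested.

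Neutrophil and B cell markers, whose cells also carry the phagocyte oxidase, showed less. Of 5 tested neutrophil markers 4 were lower and none had an unadjusted limma p under 0.05 or passed the adjustment. CSF3R differed by -0.38 (SE 0.26), MMP9 by -2.23 (SE 1.96) and S100A12 by -0.14 (SE 0.15). Over the alternatives MMP9, well above background on 5 arrays, ranged from -3.99 without CON calf 8 to -1.33 with normexp. Its unadjusted limma p was under 0.05 in 3 of 16 alternatives, that of CSF3R in 2 of 17 and that of S100A12 in none. CAMP was not well above background on any array and ELANE on 2. The summed level of the tested neutrophil markers was 289 to 335 in HAY and 316 to 416 in CON. It came almost wholly from the S100A12 probe (mean log2 level 8.31 and 8.46). The other tested probes of the list had means below 0. Of 5 B cell markers 4 were higher in HAY, 1 of them at an unadjusted limma p under 0.05, where 6.79% of all genes were. None passed the adjustment, and CD79B differed by 0.39 (SE 0.19) and PAX5 by 0.30 (SE 0.19). MS4A1, a defining B cell marker, was well above background on 2 arrays.

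All 17 rumen epithelium markers on the array were tested, among them the keratins KRT5 and KRT14 and the basal cell factor TP63, with a median log2 difference of 0.08. All 14 endothelial and all 14 smooth muscle and fibroblast markers were tested as well. Clearing the background thus cannot check the label of the tissue. The summed level was 913 to 1002 in HAY and 765 to 933 in CON. Of the 17 epithelium markers 13 were higher in HAY, where 54.5% of all genes were, and 4 were lower. At an unadjusted limma p under 0.05 none was higher and 1, KRT4, was lower, against 6.79% and 7.17% of all tested genes. None passed the adjustment. KRT4 cleared the background on all 4 CON arrays but on none of the HAY arrays, so it entered the test through CON alone. Its log2 difference was -2.32, and -0.68 with normexp. KRT14 differed by 0.58 (SE 0.27) and DSC2 by 0.33 (SE 0.15).

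Smooth muscle and fibroblast markers were lower in HAY for 14 of 14, 9 at an unadjusted limma p under 0.05 and none past the adjustment, with a median of -1.47. Over all tested genes 45.5% were lower, and 7.17% were lower at that p. ACTA2 differed by -1.33, TAGLN by -1.42 (-0.91 without HAY calf 13 and CON calf 8) and DES by -3.25 (-1.57 with normexp). HAY calf 13 had the lowest summed level of this list, 27.7, and CON calf 8 the highest, 300.4. Without these calves together the differences of DUOXA2, DUOXA1 and CYBB were 0.30, -0.0046 and -0.23. The part of tissue composition in those differences was not tested.

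Set against each other within each array, dual oxidase genes and phagocyte subunits gave 12 pairs. In 9 pairs the mean of the dual oxidase level minus the subunit level was higher in HAY than in CON. In 2, DUOX2 against CYBA and DUOX2 against CYBB, the groups did not overlap. The pairs reuse the levels given above, so these counts are not separate evidence, and no share over other gene pairs was computed. DUOX2 minus CYBA was -2.73, -2.82 and -2.73 log2 units in HAY and -3.42, -3.59, -3.51 and -3.57 in CON. The value itself depends on the 2 probes and only its shift can be read. Within groups the 2 genes had r = 0.983. The shift was 0.77 log2 units, with an SD of 0.05 in HAY and 0.08 in CON, far less spread than either gene had alone (exact permutation p = 0.0286, adjusted p = 0.171 over the 12 pairs).

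DUOX2 minus CYBB was 1.42, 2.37 and 3.21 in HAY and -0.14, 0.74, 1.30 and 0.53 in CON. Its shift of 1.73 had the same exact permutation p of 0.0286 and adjusted p of 0.171. Against NCF1 the groups overlapped for each of the 4 dual oxidase genes: DUOX2 minus NCF1 differed by 0.19 (exact permutation p = 0.571) and DUOXA2 minus NCF1 by 0.44 (exact permutation p = 0.429). With 3 against 4 calves no pair could go below 0.0286 before adjustment.

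**Figure D3:**
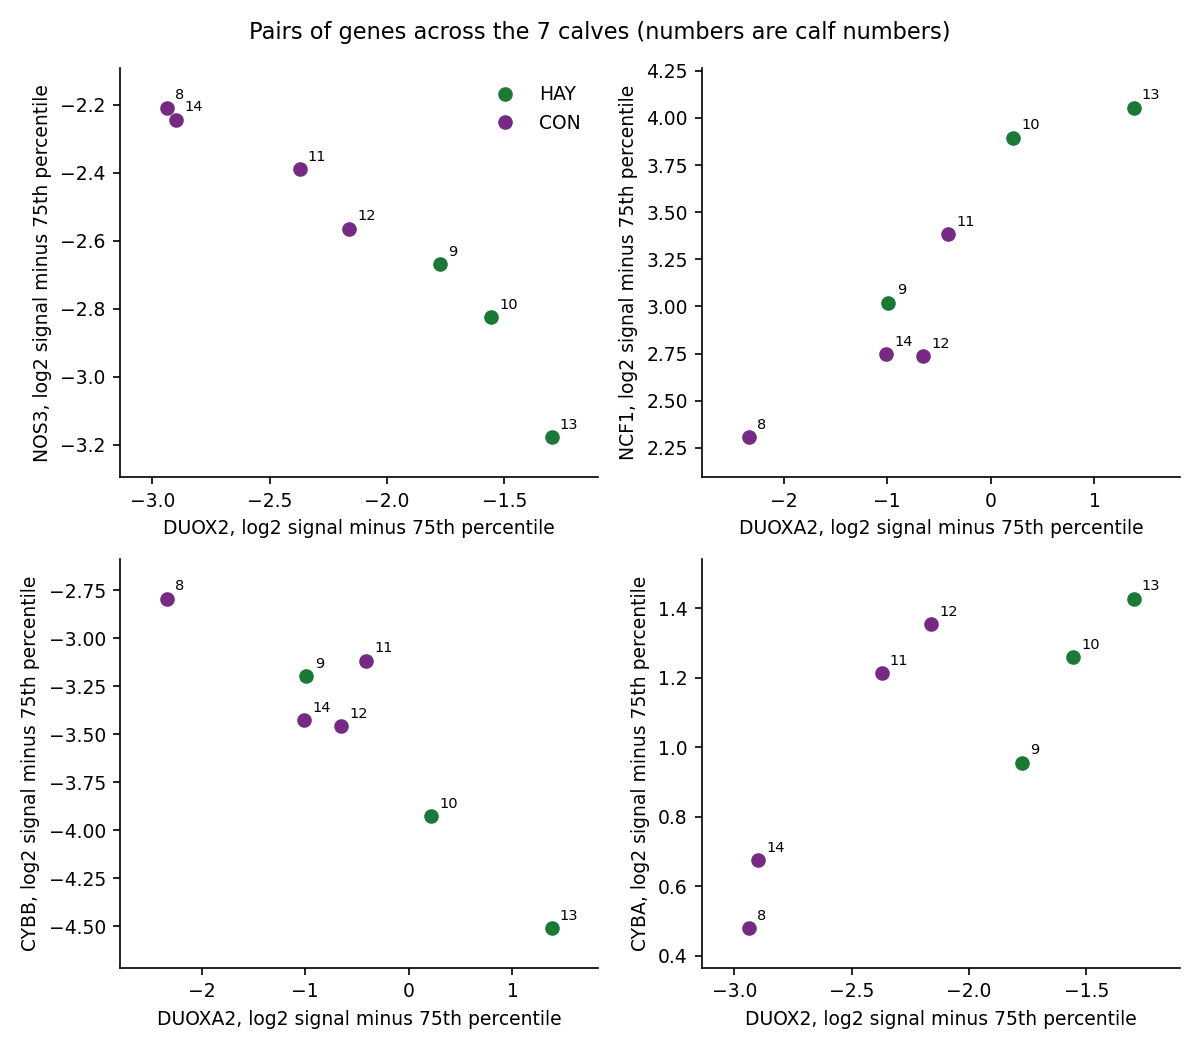
Levels of 4 pairs of genes in the 7 calves (both axes: log2 signal minus the 75th percentile of the array), HAY in green and CON in purple with calf numbers. NOS3 is lower where DUOX2 is higher with no calf out of order, NCF1 is high where DUOXA2 is high, and CYBB is low there. DUOX2 and CYBA keep a near constant distance within each group.

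Across the 7 calves 40 relations were computed, all 36 pairs of tested members and 4 pairs of a member with a marker score, and p-values were adjusted over the 40. The permutations ran over all 7 calves and ignored the groups. A p-value here thus also reflects group differences present in both values, and r within groups has no p-value. The adjusted Pearson p was under 0.05 for 7 of them and the adjusted Spearman p for 1, DUOX2 with NOS3. DUOX2 and NOS3 ran in exactly opposite order (Pearson r = -0.965, exact permutation p = 0.000198, adjusted p = 0.00794; Spearman rho = -1, exact permutation p = 0.000397, adjusted p = 0.0159). With each group centred on its mean r was -0.878, and r was -0.985 without HAY calf 13 and CON calf 8, which lay farthest from the median of DUOX2. DUOXA2 and NCF1 had r = 0.931 (exact permutation p = 0.00119, adjusted p = 0.0238) and rho = 0.893 (exact permutation p = 0.0123, adjusted p = 0.0975), with r = 0.896 within groups and r = 0.899 without those calves.

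DUOXA2 also went with CYBA (r = 0.849, exact permutation p = 0.00833, adjusted p = 0.0499; rho = 0.893) and against NOS3 (r = -0.880, exact permutation p = 0.00873, adjusted p = 0.0499; rho = -0.857), and CYBB went with NOS3 (r = 0.884, exact permutation p = 0.00853, adjusted p = 0.0499; rho = 0.821), with r = 0.664, -0.591 and 0.552 without HAY calf 13 and CON calf 8. DUOXA2 and CYBB had r = -0.930 (exact permutation p = 0.00417, adjusted p = 0.0499) and rho = -0.75 (exact permutation p = 0.0663, adjusted p = 0.156), with r = -0.684 without HAY calf 13 and CON calf 8. DUOX1 and DUOXA1, neighbours in the cluster, had r = 0.865 (exact permutation p = 0.00694, adjusted p = 0.0499) and rho = 0.786 (exact permutation p = 0.0480, adjusted p = 0.128), with r = 0.592 without CON calves 8 and 11. DUOX2 and DUOXA2, the other neighbours, had r = 0.83 (exact permutation p = 0.0159, adjusted p = 0.0601) and rho = 0.857 (exact permutation p = 0.0238, adjusted p = 0.0975), with r = 0.568 without HAY calf 13 and CON calf 8. DUOX1 and DUOX2 were not related beyond the permutation spread (r = 0.352, exact permutation p = 0.459, adjusted p = 0.592; rho = 0.286, exact permutation p = 0.556, adjusted p = 0.695; r = -0.636 without CON calves 8 and 11).

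CYBB had r = 0.854 with the macrophage and monocyte score (exact permutation p = 0.0111, adjusted p = 0.0529; rho = 0.821, exact permutation p = 0.0341, adjusted p = 0.0975), and r = 0.781 within groups. NCF1 had r = -0.707 with the same score (exact permutation p = 0.0821, adjusted p = 0.156; rho = -0.643, exact permutation p = 0.139, adjusted p = 0.265) and r = -0.250 within groups. Without the calves farthest from each gene's median, HAY calf 13 and CON calf 8 for CYBB and HAY calves 10 and 13 for NCF1, r was 0.729 and 0.061. DUOX2 had r = 0.271 with the rumen epithelium score (exact permutation p = 0.544, adjusted p = 0.680) and r = -0.180 within groups. For that relation rho was 0.321 (exact permutation p = 0.498, adjusted p = 0.686), and r was 0.407 without HAY calf 13 and CON calf 8. CYBB and NCF1, partners in 1 complex, had r = -0.83 with each other (exact permutation p = 0.0194, adjusted p = 0.0601; rho = -0.643, exact permutation p = 0.139, adjusted p = 0.265; r = -0.513 without HAY calf 13 and CON calf 8).

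NOS3, the endothelial synthase (NM_181037, chr4:114394085-114394144), was lower in HAY. Its level was -2.67, -2.82 and -3.18 in HAY and -2.21, -2.39, -2.56 and -2.24 in CON. No HAY calf reached the lowest CON calf, although HAY calf 9 and CON calf 12 were close. The means were -2.89 ± 0.26 (SD, n = 3) and -2.35 ± 0.16 (SD, n = 4), so HAY was 1.45-fold below CON (a log2 difference of -0.54 with SE 0.17, 95% interval -0.94 to -0.14; limma adjusted p = 0.272; exact permutation p = 0.0286). It did not pass the adjustment, and it was -0.35 without HAY calf 13 and CON calf 8.

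Endothelial markers had lower values in HAY for 12 of 14, 3 at an unadjusted limma p under 0.05 and none past the adjustment, with a median of -0.75. The shares over all tested genes were 45.5% lower and 7.17% lower at that p. ENG differed by -0.73, PECAM1 by -1.05 (-0.51 without HAY calf 13 and CON calf 8) and TIE1 by -0.72 (-0.33 without them), and CDH5 was well above background on 3 arrays. Their summed level ran from 3.05 to 8.93 in HAY and from 6.53 to 14.3 in CON. NOS3 had r = 0.833 with the endothelial score (exact permutation p = 0.0206, adjusted p = 0.0601; rho = 0.75, exact permutation p = 0.0663, adjusted p = 0.156), with r = 0.701 within groups and r = 0.286 without HAY calf 13 and CON calf 8. The part of endothelial content in the NOS3 difference was not tested.

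NOS2, the inducible synthase (NM_001076799), cleared the background on 1 HAY array and on none of the CON arrays. In intensity units it gave 5.06, 20.8 and 4.71 in HAY and 5.46, 3.43, 6.75 and 7.57 in CON. HAY calf 10 stood apart from the other 6 calves. With 1 HAY array and no CON array above background, no fold is given.

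Other genes of the nitric oxide pathway were mixed. Of 19 tested genes 8 were higher and 11 lower in HAY (median -0.07), with 1 higher and 4 lower at an unadjusted limma p under 0.05 and none past the adjustment. Among all tested genes 6.79% were higher and 7.17% lower at that p. ASS1, which supplies arginine to the synthases by recycling citrulline, differed by 1.13 (2.19-fold above CON, SE 0.29, limma adjusted p = 0.232), with HAY calves between 1.29 and 1.55 and CON calves between -0.48 and 0.80. ARG2, an arginase that uses the same arginine, had a difference of -2.37 (SE 0.71), and of -1.46 with normexp. ARG1, the other arginase of the list, differed by -0.24 (SE 0.23). PRKG1, the cyclic GMP-dependent kinase downstream of nitric oxide in smooth muscle, differed by -2.20 (SE 0.77), and by -1.24 without HAY calf 13 and CON calf 8.

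Peroxidases and enzymes that remove oxygen species gave 5 higher and 2 lower of 7 tested genes (median 0.09). Of these 1 had an unadjusted limma p under 0.05, where 14.0% of all tested genes did, and none passed the adjustment. That gene was EPX, the eosinophil peroxidase, at a log2 difference of 1.02 (SE 0.19, adjusted p = 0.164 with limma) without overlap between groups, which was 0.29 with normexp. SOD3 differed by 0.39 (SE 0.18; 0.058 with normexp). LPO, the lactoperoxidase that pairs with dual oxidases at mucosal surfaces, differed by -0.02 (SE 0.21), and MPO was well above background on 2 arrays.

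Signals known to induce DUOX2 or NOS2 showed no common direction, with 5 of 16 tested genes higher and 11 lower (median -0.16), 1 higher and 2 lower at an unadjusted limma p under 0.05 and none past the adjustment. At that p 6.79% of all tested genes were higher and 7.17% lower. The interleukin receptor IL17RA differed by 1.72 (SE 0.58; 1.14 without HAY calf 13 and CON calf 8), IL1R1 by -0.55 (SE 0.15) and TLR4, the lipopolysaccharide receptor, by -0.69 (SE 0.22). IFNG, IL4 and IL17A were not well above background on any array. STAT6, the transcription factor of interleukin signals, differed by -0.08 (SE 0.20).

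**Figure D4:**
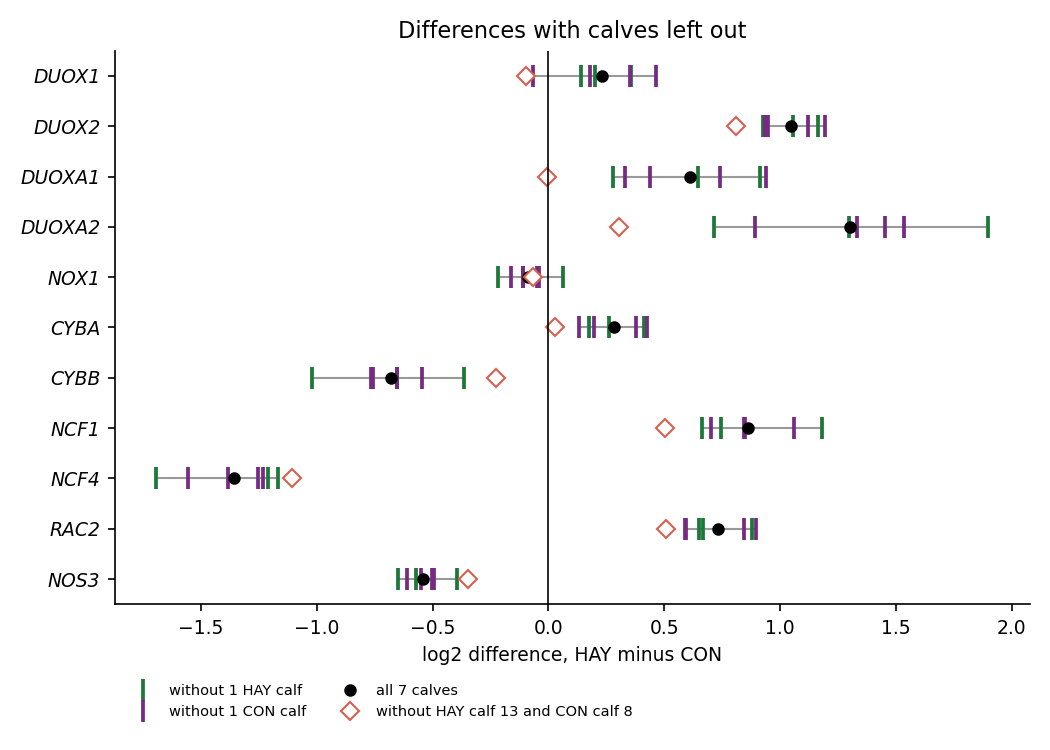
Log2 difference, HAY minus CON (x axis), for the 9 tested genes and 2 further subunits of the phagocyte complex, with all 7 calves (black points), with 1 calf left out (green ticks for HAY, purple for CON) and without HAY calf 13 and CON calf 8 (open diamonds). DUOX1, DUOXA1 and NOX1 cross 0 in the fits shown. The other genes keep their sign in every fit shown, and of these CYBA comes closest to 0 (0.027 without HAY calf 13 and CON calf 8).

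Leaving out calves moved the members unequally. For every tested member but DUOX1 and NOX1, HAY calf 13 and CON calf 8 were the group extremes in the direction of the difference. Leaving out both thus draws those group means together by construction. The DUOX2 difference stayed between 0.93 and 1.19 when each calf was left out and was 0.81 without HAY calf 13 and CON calf 8, with an unadjusted limma p under 0.05 in each of these fits and adjusted p between 0.129 and 0.741. NCF4 also kept an unadjusted limma p under 0.05 in all 17 alternatives run, of which the other filters and the mean of probes left its difference unchanged. The NOS3 difference ranged from -0.65 to -0.40 over the calves and lost its unadjusted p under 0.05 without HAY calf 13. The count of members at an unadjusted p under 0.05 was 1 without HAY calf 13, and it was 5 when HAY calf 9 was left out.

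Genes whose levels followed a member most closely over the 7 arrays were picked by Pearson r among 12560 genes. For DUOX2 they were GPSM1 (r = 0.991), TRPM6 (r = 0.989) and TSHB (r = 0.988). For CYBB they were TMEM204 (r = 0.994), ARHGAP24 (r = 0.993) and TBC1D1 (r = 0.992), and for NOS3, in place of the untested NOS2, NRP2 (r = 0.988), PRRC2B (r = 0.981) and CUTC (r = 0.979). With only 7 arrays such values are common: 209 genes had r over 0.9 with DUOX2, 520 with CYBB and 158 with NOS3.

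All HAY arrays lay in row 1 of the slide layout and all CON arrays in row 2, so an effect of the row cannot be told apart from that of the feed. Blocking on the slide column, where CON calf 8 stood alone and so dropped out of the comparison, gave a fit in which DUOX2 differed by 0.93 (limma unadjusted p = 0.0141, adjusted p = 0.234), NCF1 by 0.70 (unadjusted p = 0.113) and NOS3 by -0.49 (unadjusted p = 0.0545). Between 81.5 and 84.6% of spots per array were well above background.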

How the data were processed

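Total RNA of 7 calves, 500 ng each, was labelled with cyanine 3 and hybridised to 1 array per calf, per the labels' protocols. Per the file headers, the deposited scanner files give each spot's intensity on a linear scale, from which the software had already taken the background (Agilent Feature Extraction 9.5, per the submitters' processing notes). A deposited table of the series gives log2 values. Set against the scanner values, each column matched the scaling used here up to a constant of 0.0084 to 0.020, with a Pearson correlation that rounds to 1. The columns had medians of -3.12, -3.14 and -3.20 for HAY and -3.09, -3.09, -3.08 and -3.11 for CON, and no gene centring.

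Control spots and spots marked as outliers were left out, log2 values of spots with the same probe were averaged, and each array's 75th percentile was subtracted. No member spot was marked or saturated. Probes well above background on at least 3 arrays were kept, with the brightest probe per gene, and names were updated through RefSeq accessions (11194 of 15008 probes matched); a probe that the files name CXCR2 is CXCR1 there. Groups were compared with limma 3.58.1 in R 4.3.3 with Benjamini-Hochberg adjustment over 12570 genes and a threshold of 0.05. The fit was tested on simulated data. For single values all 35 splits of 3 against 4 calves gave an exact two-sided permutation test. Each calf counts as 1 replicate. Calf numbers differ between groups and pair no animals.

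The members and lists were chosen with earlier results of these data known. The text names every member, up to 3 genes of smallest unadjusted p from each list and the 3 genes most like DUOX2, CYBB and NOS3. It also names, chosen after their values were seen, list genes that are dim or mark a role (KRT5, TP63, LPO, STAT6, ARG1 and genes named as not above background). Some genes of the lists, counted there, are not reported here by name. The 40 relations and the 12 within-array pairs were also added after the values were seen. A list score is the mean log2 deviation of its genes from their own means. The motif search was not run, since promoter sequences were not used here. The alternatives were normexp with an offset of 50, median centring, quantile normalization, other filters, the deposited table, the mean of probes, the slide column as a block and calves left out. The number of arrays limits the precision.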

Additional observations from a re-analysis of the deposited data

Results flagged for a closer look

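In the CON group, the only group of at least 4 calves, 37 genes that the text names were examined for a calf far from the others, and chance flags about 1 in 20. CD79B, a B cell receptor chain, met the rule because CON calf 8, at -4.25, lay below the other CON calves, whose nearest value was -4.01 (gap over range 0.928, above the critical value of 0.829).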

How the results depend on the processing

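No paired analysis was possible because the calf numbers differ between the groups. DUOX2 was higher in HAY at an unadjusted limma p under 0.05 in all 17 alternatives run, and no member passed the adjustment in any of them. The 17 are not separate checks. The other filters and the mean of probes left the DUOX2 difference at 1.05, since it has 1 probe. The deposited table holds the same values up to a constant per array. The block gave the same difference as leaving out CON calf 8, 0.93. The number of genes past the adjusted threshold, 1 with all calves, was 4 with quantile normalization, 2 with the slide column as a block, 5 without HAY calf 13 and CON calf 8 together, and between 1 and 21 when each calf was left out, the highest without CON calf 14. The number at an unadjusted p under 0.05, 1755 with all calves, was 749 without calves 13 and 8 together and between 984 and 2344 when each calf was left out, the lowest without HAY calf 13 and the highest without HAY calf 9. Members at an unadjusted p under 0.05 numbered 1 with the slide column as a block, 1 without calves 13 and 8 together, and between 1 and 5 with each calf left out. The median of the dual oxidase genes was 0.15 and that of the phagocyte subunits, 0.28 with all calves, 0.027 without calves 13 and 8 together, and they ranged from 0.50 to 1.04 and from 0.13 to 0.43 with each calf left out. The sign turned for DUOX1 (-0.065 with the block and without CON calf 8, -0.096 without both calves), DUOXA1 (-0.0046 without both calves) and NOX1 (0.062 without HAY calf 9), and with each calf left out DUOX1 ranged from -0.065 to 0.46 and NOX1 from -0.22 to 0.062; the cause was not tested. Median centring called 1240 genes higher and 774 lower at an unadjusted p under 0.05, against 854 and 901, and the block 665 and 1145. Among dim probes, the NCF4 and EPX differences were -0.45 and 0.29 with normexp against -1.36 and 1.02, and NOS2 cleared the background on 1 array.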
